A study of Rattus norvegicus with 6 samples.

Results

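Cell cycle and DNA replication genes were examined in the kidneys of Dahl salt-sensitive rats (strain S) and of a congenic strain with a segment from the R strain on chromosome 9. The set was a list of 38 genes, and its members were the probe sets whose platform gene symbol was on that list. Probe sets with a symbol of their own were found for 36 of the 38 genes, 49 probe sets in all among 20826 probe sets with 1 gene symbol. Tpx2 had none, and the 2 probe sets that name Rrm2 name a second gene as well and were not used. Of the 49 probe sets, 41 passed the filter on dim signals, and these stood for 34 genes of the 10648 tested. The 8 dim ones were the only probe sets of Bub1b and Ccne1, 3 of the 5 of Cdc20 and 1 of 2 for each of Cdkn1a, Cdkn1b and Cks1b.

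Both groups were male rats of 53 days on a high-salt (2%) diet, weaned at 30 days and housed with 1 rat of each strain in a cage. The S rat becomes hypertensive when fed salt, and the study set out to narrow down a blood pressure locus within the congenic segment. Apart from that segment the congenic rats carry the S background. Each strain gave 6 rats, whose kidney RNA was pooled by 2 into 3 samples, and each sample was hybridised to 1 Affymetrix Rat 230 2.0 array. Signals are MAS5 values on a linear scale, and fold changes are congenic over S on the scale of log2(signal + 16). A signal cannot be set against that of another probe set, so levels are compared only between arrays. The kidney tubule markers Lrp2, Slc34a1, Umod, Slc12a1, Slc12a3 and Aqp2 were present on every array, with a summed signal of 23880 to 25530.

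The cell cycle is driven by cyclins, which switch on cyclin-dependent kinases (CDKs) in turn. D-type cyclins and Cdk4, then cyclin E and Cdk2, free the E2F factors from the retinoblastoma protein, and E2F turns on the genes of S phase, in which DNA is copied. Genes for mitosis come on later, under the control of the DREAM and FOXM1 complexes, which act at a promoter element called CHR (cell cycle genes homology region). Inhibitors of the Cip/Kip family hold the kinases back. Most cells of a mature nephron are at rest, and a young kidney that still grows holds some dividing tubular cells, among other dividing cells. In whole-kidney RNA, fewer dividing cells and less RNA per dividing cell cannot be told apart.

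Promoter sequence, which the choice of members did not use, was set beside the classes as a description. RefSeq promoter windows (assembly GRCr8, 250 bases before the start to 50 after it) were at hand for 29 of the 38 genes. They were searched on both strands for 3 spellings of the E2F motif (TTTCCCGC, TTTGGCGC and TTTGCGCG, whose matches may overlap at their ends), the CHR spellings TTTGAA and TTCGAA, and the CCAAT box, searched as ATTGG. An E2F spelling was found in 5 of 8 S phase promoters and in 0 of 14 mitosis promoters, where 1.89% of all 27457 promoters hold it. A CHR spelling was found in 10 of 14 mitosis promoters and 3 of 8 S phase promoters, against 19.5% of all promoters. The CCAAT box occurred in 11 of 14 and 6 of 8, against 37.7% of all promoters. Of the 5 promoters for G1 cyclins and kinases, 0 held an E2F spelling, 1 a CHR spelling and 3 a CCAAT box, and of the 2 for CDK inhibitors 0, 0 and 1 did. These matches are descriptions of letters, not of bound sites, and no promoter was at hand for Mcm4, Rrm2, Ccna2, Aurkb, Ube2c, Tpx2, Ccnd1, Ccnd2 or Cdkn1c.

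**Figure D1:**
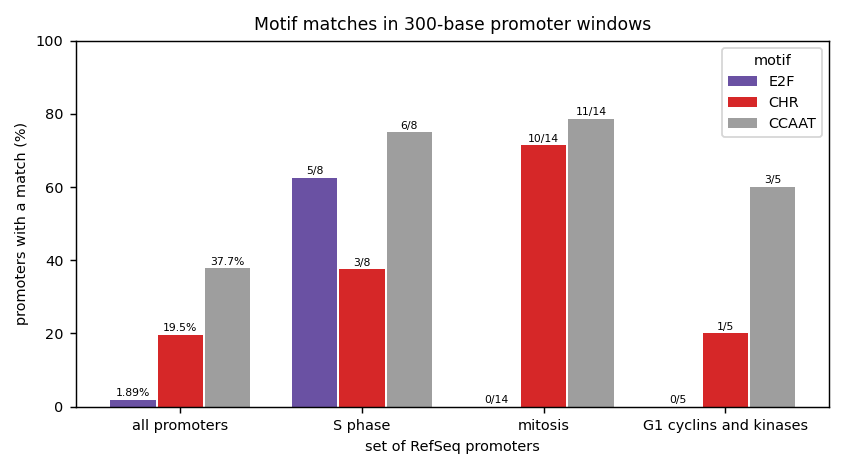
Share of RefSeq promoter windows of 300 bases (y axis, percent) with at least 1 match to each motif, for all promoters and for 3 classes of cell cycle genes (x axis), with the share above each bar for all promoters and the count above each bar for a class. E2F spellings stand in 5 of 8 S phase promoters and 0 of 14 mitosis promoters, and CHR spellings in 10 of 14 mitosis promoters.

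The 250 bases before the start are shown for 4 genes, 2 of the S phase class and 2 of the mitosis class. Each had a probe set with an unadjusted limma p under 0.05 or with no overlap between the strains. Cdk2, a G1 gene, met both conditions as well and is not shown. Its window held a CCAAT box and no E2F or CHR spelling. Capitals mark the motif matches on either strand, and each sequence runs 5′ to 3′ along the gene, which lies on the minus strand of GRCr8 in each case. Mcm6 (chr13:42404353-42404602) and Mcm7 (chr12:22163179-22163428) stand for S phase, with 1 E2F spelling each, and 1 CHR spelling in Mcm7. Top2a (chr10:84473094-84473343) and Cks2 (chr17:13727520-13727769) stand for mitosis, with 2 and 1 CHR spellings and 4 CCAAT boxes each.
Mcm6: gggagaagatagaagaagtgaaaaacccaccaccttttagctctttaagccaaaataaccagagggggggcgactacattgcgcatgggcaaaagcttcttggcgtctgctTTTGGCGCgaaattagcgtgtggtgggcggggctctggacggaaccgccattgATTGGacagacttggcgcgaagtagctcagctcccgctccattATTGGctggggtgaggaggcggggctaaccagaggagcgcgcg
Mcm7: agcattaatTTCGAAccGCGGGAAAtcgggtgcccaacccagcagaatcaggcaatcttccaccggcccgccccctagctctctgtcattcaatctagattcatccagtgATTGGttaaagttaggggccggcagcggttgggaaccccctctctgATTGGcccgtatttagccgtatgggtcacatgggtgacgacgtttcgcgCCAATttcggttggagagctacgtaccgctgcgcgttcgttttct
Top2a: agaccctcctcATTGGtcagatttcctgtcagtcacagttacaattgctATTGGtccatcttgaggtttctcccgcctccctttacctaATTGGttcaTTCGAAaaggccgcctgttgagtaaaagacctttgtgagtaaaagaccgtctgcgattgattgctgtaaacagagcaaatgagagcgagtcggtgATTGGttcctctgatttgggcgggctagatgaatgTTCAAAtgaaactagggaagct
Cks2: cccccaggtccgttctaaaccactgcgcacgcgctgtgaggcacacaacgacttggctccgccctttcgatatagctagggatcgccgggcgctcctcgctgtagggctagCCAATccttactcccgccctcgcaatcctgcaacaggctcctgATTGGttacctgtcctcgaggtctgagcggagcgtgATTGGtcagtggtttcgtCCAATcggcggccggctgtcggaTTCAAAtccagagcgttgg

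Across the 41 tested probe sets of these genes, none passed limma's test at an adjusted p under 0.05, in a table where 0 of 18625 probe sets (0%) passed. The smallest adjusted p of a member was 0.736, for a probe set of Top2a. At an unadjusted limma p under 0.05 there were 4 member probe sets. Of these, 3 of 41 (7.32%) were higher in congenic pools, where 3.1% of all probe sets were, and 1 of 41 (2.44%) was lower, where 3.52% of all probe sets were. The strains did not overlap for 5 member probe sets that were higher in congenic pools (12.2%, against 5.71% of all probe sets) and for 1 that was lower (2.44%, against 6.79%). Both probe sets of Cdk2 are among the 5, and they measure 1 gene. Aurkb is also among the 5, and it passed the filter only through its congenic signals. The count of 4 was 0 without S replicate 1, 2 without S replicate 2 and 1 without congenic replicate 2. It was 4 without S replicate 3, 3 without congenic replicate 1 and 3 without congenic replicate 3. Over all tested probe sets, the counts in these settings were 986, 911 and 1008, then 1737, 1180 and 1091. With all 6 arrays, 577 of all probe sets were higher and 655 lower. The member count thus depended on which arrays were used, as did that of the whole table.

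Taken as 1 probe set per gene, 20 of the 34 tested genes had a higher mean in congenic pools and 14 a lower one. Their median log2 fold change was 0.035. Over the 10648 genes tested, 47.2% had a higher mean, and the median was -0.0071. By this count 3 of the 34 were higher without overlap and 1 was lower, where 5.61% and 7.05% of all genes were. At an unadjusted limma p under 0.05, 2 of the 34 were higher and 1 was lower, against 2.96% and 3.66% of all genes. The class medians were -0.0023 for 9 S phase genes, 0.079 for 16 mitosis genes, 0.071 for 6 G1 cyclins and kinases and -0.046 for 3 CDK inhibitors. The SD between arrays of a strain in the class median was 0.03, 0.077, 0.11 and 0.067 in that order (log2 scale). With each array left out in turn, the G1 median ranged from -0.0071 (without S replicate 1) to 0.099, so its sign turned. The medians of S phase (-0.031 to 0.029) and of CDK inhibitors (-0.12 to 0.036) turned sign as well, and that of mitosis (0.034 to 0.16) did not. The difference between classes was not tested.

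**Figure D2:**
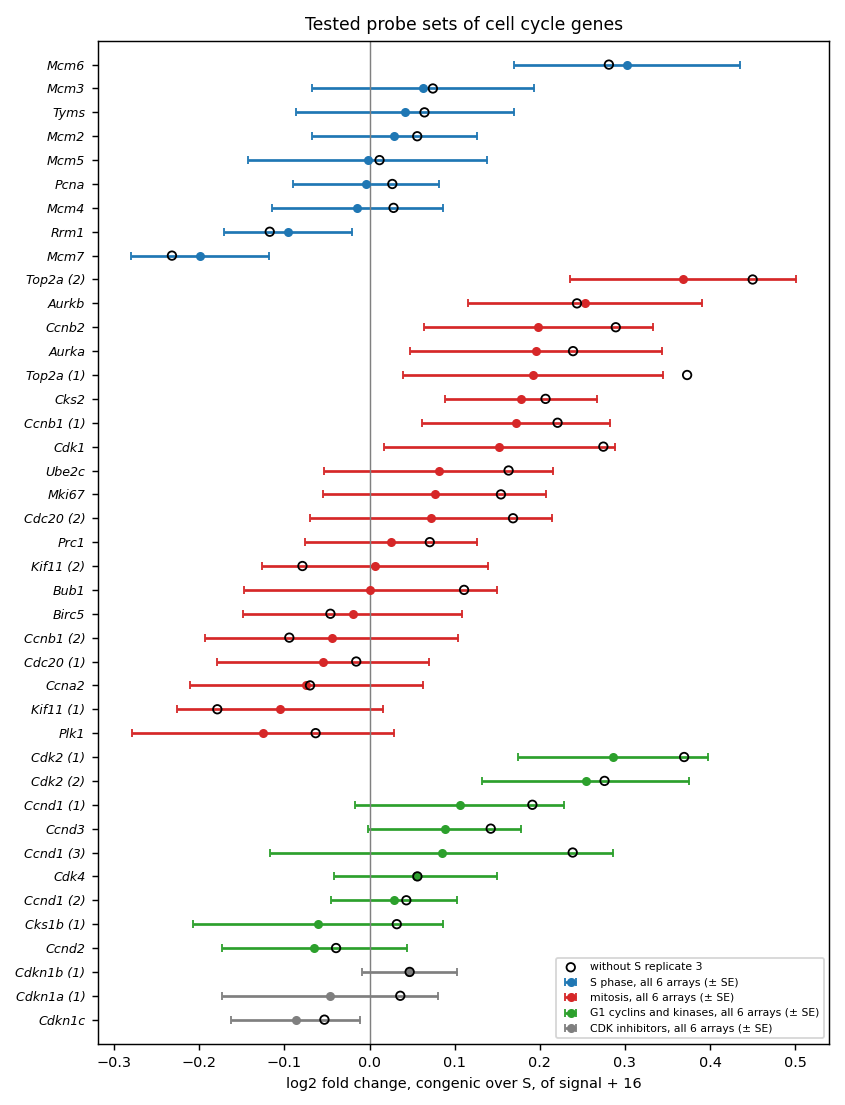
Log2 fold change, congenic over S, of signal + 16 (x axis) for the 41 tested probe sets (y axis, a number in brackets where a gene has several probe sets), coloured by class, with bars of 1 standard error. Open circles are the same values without S replicate 3. The values run from -0.20 for Mcm7 to 0.37 for a probe set of Top2a, and for 15 of 20 mitosis probe sets the open circle lies to the right.

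Mcm2 to Mcm7 form the ring of the replicative helicase, and its subunits Mcm6 and Mcm7 had the highest and the lowest fold change of the S phase class. Mcm6 had signals of 51.2, 76.3 and 59.3 in the S pools and 74.8, 76.8 and 88.05 in the congenic pools. S replicates 1 and 3 were the lowest of the 6 arrays, and S replicate 2 lay among the congenic pools. The log2 fold change was 0.30 (SE 0.13, adjusted p = 0.746 in limma). Mcm7 had signals of 294, 264 and 259 in the S pools and 246, 239.5 and 219.5 in the congenic pools. Every S pool was above every congenic pool, with a log2 fold change of -0.20 (SE 0.081, adjusted p = 0.746 in limma). With each array left out in turn, Mcm6 ranged from 0.20 to 0.43 and Mcm7 from -0.23 to -0.15.

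The remaining helicase subunits lay near 0, with strains that overlapped. Mcm2 (98.9 to 118 over the 6 arrays) had a log2 fold change of 0.029, Mcm3 (29.5 to 39.8) of 0.063, Mcm4 (80.7 to 94.8) of -0.014 and Mcm5 (33.97 to 50.3) of -0.0023. With 3 subunit means above 0 and 3 below, the ring had no common direction, and the signs of Mcm2, Mcm3, Mcm4 and Mcm5 turned under at least 1 alternative. Pcna, the sliding clamp that holds DNA polymerase on its template, had signals of 659, 599.6 and 671 in the S pools and 586, 615 and 729 in the congenic pools. Its lowest and its highest pool were both congenic, and the 95% interval of its log2 fold change ran from -0.19 to 0.19.

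Enzymes that supply deoxynucleotides also overlapped between strains. Rrm1, the large subunit of ribonucleotide reductase, had signals of 266, 244 and 243 in the S pools and 228, 230.1 and 244 in the congenic pools, and a log2 fold change of -0.096 (SE 0.075). S replicate 1 was its highest array and congenic replicates 1 and 2 its lowest. Tyms, thymidylate synthase, had signals of 26.1, 23.1 and 26.6 in the S pools and 27.3, 25.8 and 26.1 in the congenic pools. Its mean lay just above the filter, which cuts at a signal of 24.95, so a change in Tyms is poorly measured here (95% interval -0.24 to 0.33).

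The mitosis gene with the highest fold change in any probe set was Top2a, topoisomerase II alpha, which untangles sister DNA and is made mainly in dividing cells. Its brighter probe set had signals of 52.1, 57.4 and 87.1 in the S pools and 71.7, 81.96 and 73.4 in the congenic pools. S replicate 3 was the highest of the 6 arrays, and S replicates 1 and 2 were the lowest. The second probe set had signals of 40.1, 38.5 and 49.5 in the S pools and 57.7, 51.9 and 69.99 in the congenic pools, and there every congenic pool was above every S pool. The log2 fold changes were 0.19 (SE 0.15, adjusted p = 0.833 in limma) and 0.37 (SE 0.13, adjusted p = 0.736 in limma). Without S replicate 3 they were 0.37 (adjusted p = 0.446 in limma) and 0.45 (adjusted p = 0.437 in limma). With each array left out in turn they ranged from 0.074 to 0.37 and from 0.27 to 0.45, and the brighter was at its lowest without S replicate 1.

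Cks2 and Aurkb also separated the strains. Cks2, a small protein that binds CDKs, had signals of 91.4, 96.9 and 101 in the S pools and 113, 111 and 109 in the congenic pools. The lowest congenic pool lay above the highest S pool, with a log2 fold change of 0.18 (SE 0.089, adjusted p = 0.78 in limma). Aurkb, the kinase of the chromosomal passenger complex, had signals of 24.8, 20.6 and 21.9 in the S pools and 25.1, 33 and 31.6 in the congenic pools. Congenic replicate 1 barely exceeded S replicate 1, the means lay near the filter, and the log2 fold change was 0.25 (SE 0.14, adjusted p = 0.782 in limma). Every S signal of Aurkb was below the cut of 24.95, so it was tested only through its higher congenic signals. Its lack of overlap is therefore a description and adds no support.

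**Figure D3:**
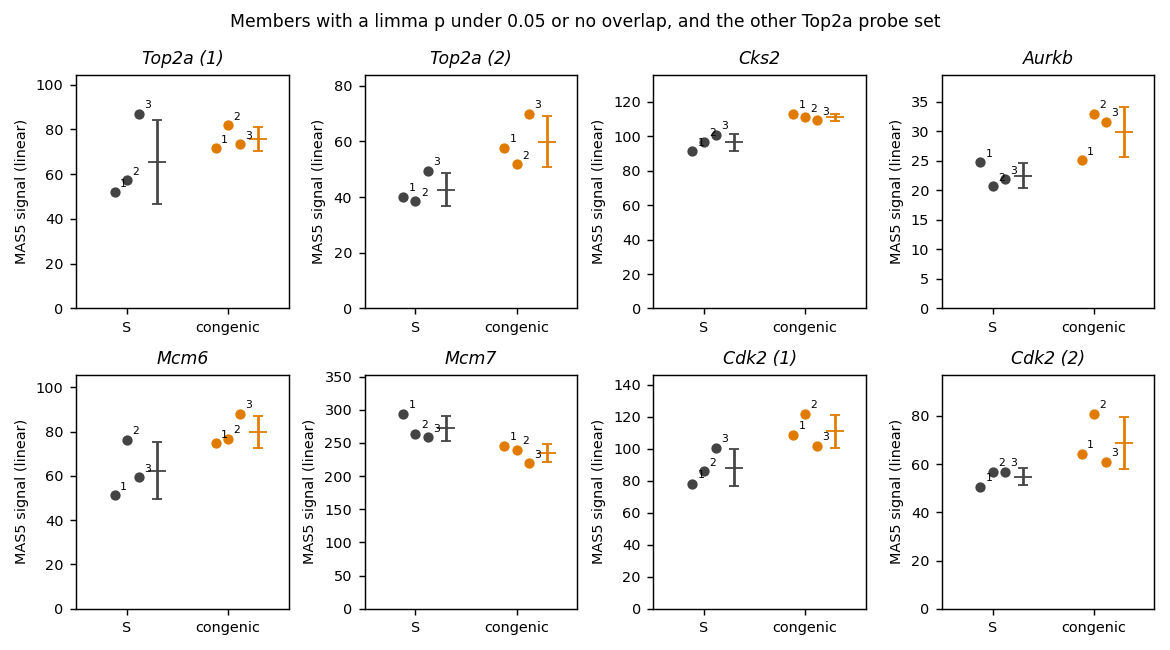
MAS5 signal on a linear scale (y axis, from 0) of 8 probe sets in the 3 S pools and the 3 congenic pools (x axis). Points are arrays, numbered by replicate, and the bar beside them is the mean ± SD (n = 3). Mcm7 is lower and Cks2, Aurkb, both Cdk2 probe sets and the second Top2a probe set are higher in every congenic pool than in any S pool, whereas Mcm6 and the other Top2a probe set overlap.

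Mki67, the gene of the proliferation antigen Ki-67, did not separate the strains. It had signals of 88.4, 103 and 115 in the S pools and 94.9, 101 and 132 in the congenic pools. The highest array was congenic replicate 3 and the lowest S replicate 1, and S replicates 2 and 3 lay above congenic replicates 1 and 2. The log2 fold change was 0.077 (95% interval -0.21 to 0.37). Cdk1, the mitotic kinase, had signals of 57.7, 62.2 and 81.8 in the S pools and 71.1, 88.01 and 69.5 in the congenic pools, with a log2 fold change of 0.15 (SE 0.14). S replicate 3 was the second highest of its 6 arrays.

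Of the B-type cyclins, which activate Cdk1, Ccnb2 had signals of 77, 73.97 and 94.6 in the S pools and 86.7, 85.4 and 118 in the congenic pools. Congenic replicate 3 alone stood above S replicate 3, and the log2 fold change of 0.20 became 0.067 without that congenic array. The brighter probe set of Ccnb1 had signals of 57.04, 55.2 and 63.9 in the S pools and 65.8, 63.6 and 75.3 in the congenic pools, and the second 46.7, 36.97 and 35.97 in the S pools and 40.5, 29.4 and 45.3 in the congenic pools. These 2 probe sets disagreed in sign, at 0.17 and -0.044, and neither separated the strains. Ccna2, the cyclin of S phase and early mitosis, ranged from 24.97 to 36.01 with a log2 fold change of -0.074.

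Genes of the spindle, its checkpoint and mitotic exit lay on both sides of 0. Kif11, the motor that pushes spindle poles apart, had signals of 427, 372 and 339.7 in the S pools and 404, 288 and 368 in the congenic pools for its brighter probe set. Congenic replicate 2 was the lowest array there, and the log2 fold changes of its 2 probe sets were -0.10 and 0.0065. The kinases Aurka (21.4 to 38.8) and Plk1 (29.04 to 45.9) had log2 fold changes of 0.20 and -0.13. Bub1 (26.8 to 41.3), a checkpoint kinase, had one of 0.00077, and Birc5 (32.1 to 40.7), the passenger protein survivin, one of -0.02. Of the genes tied to the anaphase-promoting complex, Ube2c (48.4 to 66.7), its ubiquitin-conjugating enzyme, had one of 0.081, and the 2 tested probe sets of its activator Cdc20 had -0.054 and 0.073. Prc1 (85.7 to 103), which bundles the midzone of the spindle, had 0.026. The strains overlapped for every gene named in this paragraph, and Bub1b, at 3.03 to 16.5, was too dim to be tested.

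S replicate 3 carried higher mitosis signals than the other S pools. The median deviation of the 16 mitosis genes from each gene's mean over the 6 arrays, on the log2(signal + 16) scale, was -0.087, -0.11 and 0.080 in S replicates 1, 2 and 3 and 0.011, 0.047 and 0.064 in the congenic pools. S replicate 3 was thus the highest by this measure, while S replicates 1 and 2 were the lowest. It was the lowest array for 0 of the 34 member genes, where it was the lowest for 14.3% of all tested probe sets. S replicate 1 was the lowest array for 12 of the 34 (35.3%), against 21.9% of all probe sets, and congenic replicate 3 the highest for 12 (35.3%), against 15.4%.

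Leaving out S replicate 3 raised the mitosis median to 0.16 and moved the log2 fold change upward for 15 of 20 mitosis probe sets. The S phase median was then 0.028, with 6 of 9 probe sets moved upward, and 9 of 9 probe sets of G1 cyclins and kinases and 3 of 3 of CDK inhibitors moved upward as well. The median deviation of S replicate 3 was 0.074 in the G1 class and 0.11 among the inhibitors, so the shift was not limited to mitosis genes. Each upward move only restates that S replicate 3 lay above the mean of the other S pools, so it adds no support. Over all genes tested, the median was -0.0071 with all arrays and -0.0087 without S replicate 3. No member passed limma's adjusted threshold in that comparison, which called 3 of 18625 probe sets (0.0161%, and 0 with the filter on the mean linear signal), and the smallest member adjusted p was 0.423. At an unadjusted limma p under 0.05 there were again 3 of 41 higher, now with both Top2a probe sets and Cdk2 and without Mcm6, where 4.75% of all probe sets were higher. Mcm7 was again the 1 lower (adjusted p = 0.495 in limma), where 4.58% of all probe sets were lower.

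**Figure D4:**
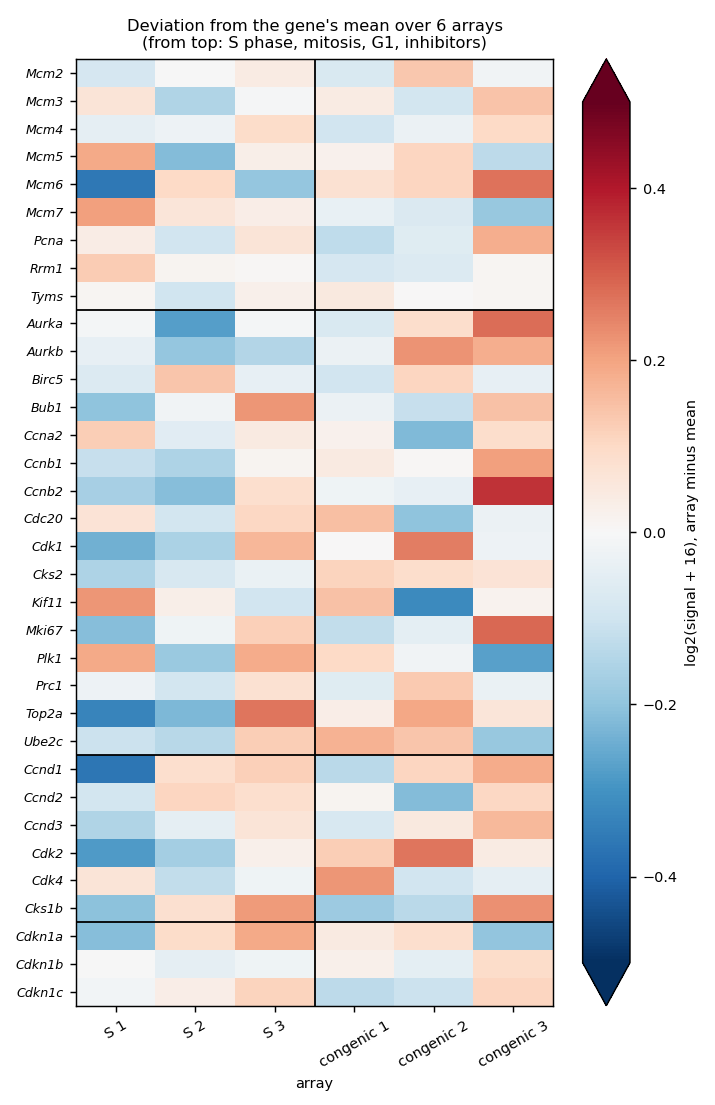
Deviation of log2(signal + 16) from each gene's mean over 6 arrays (colour) for 34 genes (rows, 1 probe set each, by class) on the 6 arrays (columns). Among mitosis genes, S replicates 1 and 2 are mostly blue (below the mean, medians -0.087 and -0.11), and S replicate 3 is mostly red (median 0.080).

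Among the G1 regulators, Cdk2 separated the strains with both of its probe sets. The brighter had signals of 78.2, 85.8 and 101 in the S pools and 109, 122 and 102 in the congenic pools, and the second 50.6, 56.8 and 56.9 in the S pools and 64.3, 80.9 and 61.04 in the congenic pools. In each, S replicate 1 was the lowest array and congenic replicate 2 the highest, and the margin between the nearest pools of the brighter probe set was narrow. The log2 fold changes were 0.29 (SE 0.11, adjusted p = 0.746 in limma) and 0.25 (SE 0.12, adjusted p = 0.771 in limma). With each array left out in turn they ranged from 0.22 to 0.37 and from 0.15 to 0.32. Ccne1, the cyclin E that pairs with Cdk2, was below the filter at 14.1 to 25.1.

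Ccnd1, cyclin D1, which links growth signals to the cycle, had 3 tested probe sets. The brightest had signals of 1296, 1774 and 1815 in the S pools and 1522, 1803 and 1901 in the congenic pools. S replicate 1 was the lowest array and congenic replicate 1 the next, so each strain had 1 low pool. The other 2 probe sets had signals of 746, 796 and 795 in the S pools and 713, 831 and 846 in the congenic pools, and of 180.4, 326 and 340.5 in the S pools and 240.1, 331 and 305 in the congenic pools. The log2 fold changes of the 3 were 0.11, 0.029 and 0.085, and without S replicate 1 they were all below 0. The related cyclins Ccnd2 (103 to 132) and Ccnd3 (207 to 261) had log2 fold changes of -0.065 and 0.088. Their partner Cdk4 (248 to 318) had one of 0.054, and Cks1b (58.95 to 85.2), which helps in the destruction of p27, one of -0.06.

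CDK inhibitors did not separate the strains in any tested probe set. Cdkn1a, the p53-induced inhibitor p21, had signals of 86.5, 111 and 119 in the S pools and 106, 110.0 and 87.5 in the congenic pools. S replicate 1 and congenic replicate 3 were both low, and the 95% interval of its log2 fold change was -0.33 to 0.23. Cdkn1b, p27, which keeps resting cells out of the cycle, had signals of 1256, 1217 and 1237 in the S pools and 1278, 1216 and 1342 in the congenic pools. The spread over these 6 arrays was small, and the interval of -0.077 to 0.17 was the narrowest of the class. Cdkn1c, p57, known in kidney as a podocyte gene, had signals of 642, 664 and 701 in the S pools and 591, 601 and 699.6 in the congenic pools. S replicate 3 and congenic replicate 3 were its highest arrays, and the log2 fold change was -0.087 (SE 0.076).

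Other genes of the same pathways gave 0 calls at an adjusted p under 0.05. Of 40 further replication genes 33 were tested, of which 14 were higher and 19 lower in congenic pools. Their median was -0.057 on the log2 scale, and 0 had an unadjusted limma p under 0.05 in either direction in the probe set that stood for the gene. The 3 with the smallest p were Chaf1a, a histone chaperone of replication (-0.50, adjusted p = 0.763 in limma), the clamp loader gene Rfc2 (-0.21, adjusted p = 0.78 in limma) and Rnaseh2a, which removes RNA from DNA (-0.16, adjusted p = 0.78 in limma). Named after their values were seen, Rfc5 (-0.16) and dimmer probe sets of Lig1 (-0.42) and Orc3 (-0.25) were lower in every congenic pool than in any S pool. That of Lig1 also had an unadjusted limma p under 0.05. These were 3 of the 41 tested probe sets of the list, with 0 higher without overlap, where 6.79% of all probe sets were lower and 5.71% higher. By 1 probe set per gene, 1 of the 33 was lower, where 7.05% of all genes were.

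Of 44 further mitosis genes 29 were tested, with 17 higher, 12 lower and a median of 0.022. That median was -0.022 without congenic replicate 3 and 0.074 without S replicate 3, so its sign rests on 1 array. At an unadjusted limma p under 0.05, 2 of the 29 were higher and 1 was lower, where 2.96% of all genes were higher and 3.66% lower. Ncaph, a subunit of the condensin that folds mitotic chromosomes, had signals of 59.02, 56.5 and 56.2 in the S pools and 74.03, 71.01 and 78.1 in the congenic pools. Each congenic pool was above each S pool, with a log2 fold change of 0.30 (SE 0.10, adjusted p = 0.718 in limma). Smc4, the ATPase of the same complex, had log2 fold changes of 0.45 and -0.28 in its 2 tested probe sets, and Melk, a kinase of dividing cells, of -0.28. Cdca3 (0.16) and a dimmer probe set of Hmmr (0.26), named after their values were seen, were also higher in every congenic pool. By 1 probe set per gene, 2 of the 29 were higher without overlap and 0 lower, where 5.61% and 7.05% of all genes were. Over probe sets, 3 of 33 were higher and 0 lower, against 5.71% and 6.79% of all probe sets.

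Of 22 further genes of G1 control 14 were tested, with 6 higher, 8 lower and a median of -0.0045. Cdkn3, a phosphatase of CDKs, had signals of 72.2, 91.1 and 70.8 in the S pools and 94.99, 96.5 and 118 in the congenic pools, without overlap between the strains and with a log2 fold change of 0.34 (SE 0.12, adjusted p = 0.736 in limma). The E2F partner Tfdp1 was separated the other way, with signals of 444, 461 and 435 in the S pools and 411, 399 and 427 in the congenic pools and a log2 fold change of -0.11, and the phosphatase Cdc25a overlapped at 0.24. Of the 14 genes, 1 was thus higher without overlap and 1 lower, where 5.61% of all genes were higher and 7.05% lower. The median of the G1 list ranged from -0.024 to 0.041 with 1 array left out. Of 15 p53 targets other than Cdkn1a 13 were tested, with 8 higher, 5 lower and a median of 0.023, which was -0.025 without congenic replicate 1 and -0.0033 without S replicate 3. Phlda3 had a log2 fold change of 0.46 (adjusted p = 0.718 in limma), cyclin G1 (Ccng1) of 0.16 (adjusted p = 0.736 in limma) and Mdm2, the ubiquitin ligase of p53, of 0.15 (adjusted p = 0.775 in limma), with its other 2 probe sets at -0.20 and 0.096. In the probe set that stood for each of these 3 genes, every congenic pool exceeded every S pool, and in the tested probe set of Cdkn1a the strains overlapped. The other Cdkn1a probe set, below the filter, was lower in every congenic pool (5.97 to 7.53, against 8.22 to 10.9 in S). Sesn1 (-0.14) and a dimmer probe set of Sesn2 (-0.37), named after their values were seen, were lower in every congenic pool. By 1 probe set per gene, 3 of the 13 were thus higher without overlap and 1 lower, where 5.61% of all genes were higher and 7.05% lower. At an unadjusted limma p under 0.05, 1 of the 14 G1 genes and 2 of the 13 p53 targets were higher and 0 were lower in the probe set that stood for the gene. Over all genes, 2.96% were higher and 3.66% lower at this threshold. The dimmer Sesn2 probe set was lower.

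Other cell types and RNA quality also varied between arrays, and their part in these values was not tested. The 5 measured adrenal markers summed to 128 to 142 on 5 arrays and to 5506 on congenic replicate 3, and the 6 liver markers to 105 to 196 on 5 arrays and to 9413 on congenic replicate 1. Against congenic replicate 2 alone, the medians were -0.036 for S phase, 0.093 for 15 mitosis genes and 0.014 for G1 cyclins and kinases. The summed signal of 7 lymphocyte markers, of which 5 lay below the filter, was 301 to 335 in S and 283 to 378 in congenic pools. The 6 fat markers summed to 1514 to 2018 and 1225 to 1849, and the 5 urothelial markers to 494 to 542 in S and 401 to 470 in congenic pools, without overlap. Krt19 (207 to 264) was the brightest urothelial marker and weighed most in that sum. Krt19 and Upk1b were lower in every congenic pool, whereas Upk1a, Upk2 and Upk3a overlapped. The 5 macrophage markers summed to 656 to 673 and 661 to 702, and 3 erythroid markers to 7168 to 8071 and 7783 to 8444. In each of the adrenal, liver, fat, urothelial and macrophage lists 1 marker lay below the filter. The ratio of the actin probe set at the 3′ end to that at the 5′ end, which grows as RNA degrades, was 6.54 to 9.42 in S pools and 6.15 to 7.17 in congenic pools. It was highest in S replicate 1 and next in S replicate 2, the arrays with the lowest mitosis medians. Among the congenic pools the order was the reverse. Ratios of 6.15, 6.64 and 7.17 in replicates 1, 2 and 3 stood beside mitosis medians of 0.011, 0.047 and 0.064.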

How the data were processed

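The authors deposited linear signal intensities made with MAS5, per the submitters' processing notes, which name neither its version nor its scaling target here. Medians of 42.9 to 46.0 place the arrays on a common scale. Here 57 control probe sets and 12417 probe sets in the lowest 40% by mean log2(signal + 16) were left out. The other 18625 were fitted together with limma 3.58.1 in R 4.3.3 (lmFit and trended eBayes). Tests were 2-sided, and p-values were adjusted by Benjamini-Hochberg over all of them. The filter was first run on the mean linear signal and changed to the log2 mean after both results had been seen. Intervals are 95% intervals from that fit. With 3 arrays a strain, exact permutation allows no p below 0.1 and was not used. The fit was tested on simulated data. The number of arrays limits the precision.

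A gene was represented in class medians by its brightest probe set. Values on every array were given for members with an unadjusted p under 0.05, a log2 fold change of 0.25 or more in size, no overlap, or probe sets that disagreed in sign by over 0.2, for extremes of each class by signal, and for Mki67, Top2a, Pcna, Ccnd1 and the inhibitors. Of each further list the 3 genes with the smallest p were named. Rrm1, Cdk1 and Ccnb2 were given in full after their values were seen. Members and lists were chosen with earlier results of these data known. Alternatives were pseudocounts of 1 and 64, other filters, quantile normalization, median centring, eBayes without a trend, array weights, a replicate block and leaving out arrays.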

Additional observations from a re-analysis of the deposited data

How the results depend on the processing

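Under 18 alternatives, 0 of 715 values of member probe sets passed limma's adjusted threshold, and 62 changed sign. The sign changes fell on 23 of the 41 probe sets. The other 18 kept their sign. They include those of Top2a, Cdk2, Cks2, Aurkb, Mcm6 and Mcm7, genes that were picked out by these same values. Where the strains did not overlap, leaving out arrays cannot turn the sign, so a kept sign adds nothing there. Aurkb fell below the filter in some alternatives. The number of member probe sets at an unadjusted p under 0.05, which was 4, became 2 when the filter cut at the 60th percentile and 21 member probe sets were left, and 7 with eBayes without a trend, and ranged from 0 to 4 with 1 array left out. The whole table had 0 to 3 adjusted calls with 1 array left out. Those settings also gave medians of -0.031 to 0.029 for S phase, 0.034 to 0.16 for mitosis, -0.0071 to 0.099 for G1 cyclins and kinases and -0.12 to 0.036 for CDK inhibitors. The S phase median was 0.041 with array weights and -0.036 against congenic replicate 2 alone. The cause was not tested. With the filter on the mean linear signal, an alternative chosen after seeing the data, the count was also 4, and leaving out S replicate 3 as well gave 0 adjusted calls in the whole table in place of 3, with medians of 0.028 for S phase, 0.16 for mitosis and 0.036 for CDK inhibitors. The replicate numbers of the labels are not stated to pair the pools. Correlations of deviations from the strain means were 0.043, 0.022 and 0.017 between same-numbered arrays. They were -0.052 to 0.036 between arrays of different number, and values this small cannot decide whether pools were paired. With a replicate block the count of 4 was also 4. Precision is limited by 3 arrays a strain, with a median SE of 0.11 over tested probe sets.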
